A study of Homo sapiens with 12 samples.

Results

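Intermediate filament proteins are described here by 10 genes chosen by name, out of 53712 named genes in the count table. They are the lamin genes LMNA, LMNB1 and LMNB2, vimentin (VIM), nestin (NES) and the keratin genes KRT7, KRT8, KRT10, KRT18 and KRT19. All 10 passed the filter on low counts, as did 17228 genes in all. The choice used no measured value, but it was made with earlier results of these libraries known.

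The study asked what a fall of LINE1 RNA, the transcript of a family of mobile elements, does to cells of H9, an established line of human embryonic stem cells. ASO-L1 libraries came from cells given antisense oligonucleotides to LINE1 RNA, SO-L1 libraries from cells given oligonucleotides in the sense orientation, and ASO-Ctr libraries from cells given control antisense oligonucleotides, each at 25 nM. There were 4 libraries in each of the 3 groups, numbered 1 to 4, and poly(A) RNA was sequenced from unsorted cells 48 h after transfection. Cells of all groups grew in RSeT medium with 5 nM TSA, which inhibits histone deacetylases, and 10 nM DZNep, which blocks S-adenosylhomocysteine hydrolase and so lowers histone methylation. All groups also received 0.7 uM trans-ISRIB, 5 uM emricasan and 10 uM Y-27632 for the first 24 h, so no group shows cells without these agents. LINE1 RNA itself was not analysed here, and the fall of the target was not checked. The labels do not say whether libraries of a group came from separate cultures, so p-values measure the spread between these libraries.

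Intermediate filaments are rope-like polymers that give cells and nuclei mechanical strength. The lamins form the meshwork under the inner nuclear membrane: LMNA encodes the A-type lamins A and C, which are scarce in pluripotent cells and rise as cells differentiate, and LMNB1 and LMNB2 encode the B-type lamins, which nearly all cells carry. In the cytoplasm vimentin is the filament protein of mesenchymal cells, nestin copolymerises with it in progenitor cells, and keratins fill epithelial cells as obligate pairs of a type I and a type II chain. KRT8 with KRT18 is the first keratin pair of the embryo, and KRT7, KRT8, KRT18 and KRT19 together are the keratins of simple epithelia.

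Total counts were 20367989 to 32180891 per library, and 1 count was worth at most 0.0494 CPM (counts scaled by effective library size). Libraries numbered 1 and 2 stood apart from those numbered 3 and 4 in every group: over 17228 genes, deviations from the group means correlated at 0.455 to 0.543 between different numbers of the same set and at -0.53 to -0.426 across the sets. The labels do not say what the numbers stand for. The core pluripotency gene POU5F1 averaged 960 CPM in ASO-L1, 1054 in SO-L1 and 1088 in ASO-Ctr libraries, and markers of naive cells ranged widely. KLF17 stayed at 1.23 CPM or lower in every library, while DPPA5 was at 66.2 to 122 CPM in ASO-L1, 102 to 162 in SO-L1 and 106 to 158 in ASO-Ctr libraries, and the 9 naive genes summed to 288 to 345 CPM in ASO-L1, 258 to 298 in SO-L1 and 269 to 300 in ASO-Ctr libraries. In bulk RNA a change in the share of a cell type and a change in RNA per cell cannot be told apart.

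In ASO-L1 against ASO-Ctr, 7 of the 10 genes rose and 0 fell. LMNA rose most, by 3.18-fold, followed by VIM, by 2.53-fold; KRT7 rose by 1.93-fold, KRT8 by 1.55-fold, KRT18 by 1.45-fold, NES by 1.37-fold and KRT19 by 1.30-fold. The B-type lamins LMNB1 and LMNB2 and the epidermal keratin KRT10 did not pass the test. Of all genes tested, 22.3% passed the same test (11.6% higher, 10.7% lower), by edgeR's quasi-likelihood test at an adjusted p under 0.05 (Benjamini-Hochberg). In LMNA, VIM, NES, KRT8, KRT18 and KRT19 all 4 ASO-L1 libraries were above all 4 ASO-Ctr and all 4 SO-L1 libraries. Of all genes, 25.5% did not overlap between ASO-L1 and ASO-Ctr (13.3% higher) and 24.2% between ASO-L1 and SO-L1 (12.7% higher). The median log2 fold change was 0.49 over the 10 genes and -0.00 over all genes tested. In ASO-L1 against SO-L1, which shares the ASO-L1 libraries, 6 of the 10 genes rose and 0 fell, where 20.3% of all genes passed (10.7% higher, 9.64% lower), and the median was 0.43 over the 10 genes and -0.00 over all. With the replicate number as a block these counts were 8 and 8 of the 10 genes, while the calls over all genes came to 7747 in place of 3847 against ASO-Ctr and to 7469 in place of 3497 against SO-L1.

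**Figure D1:**
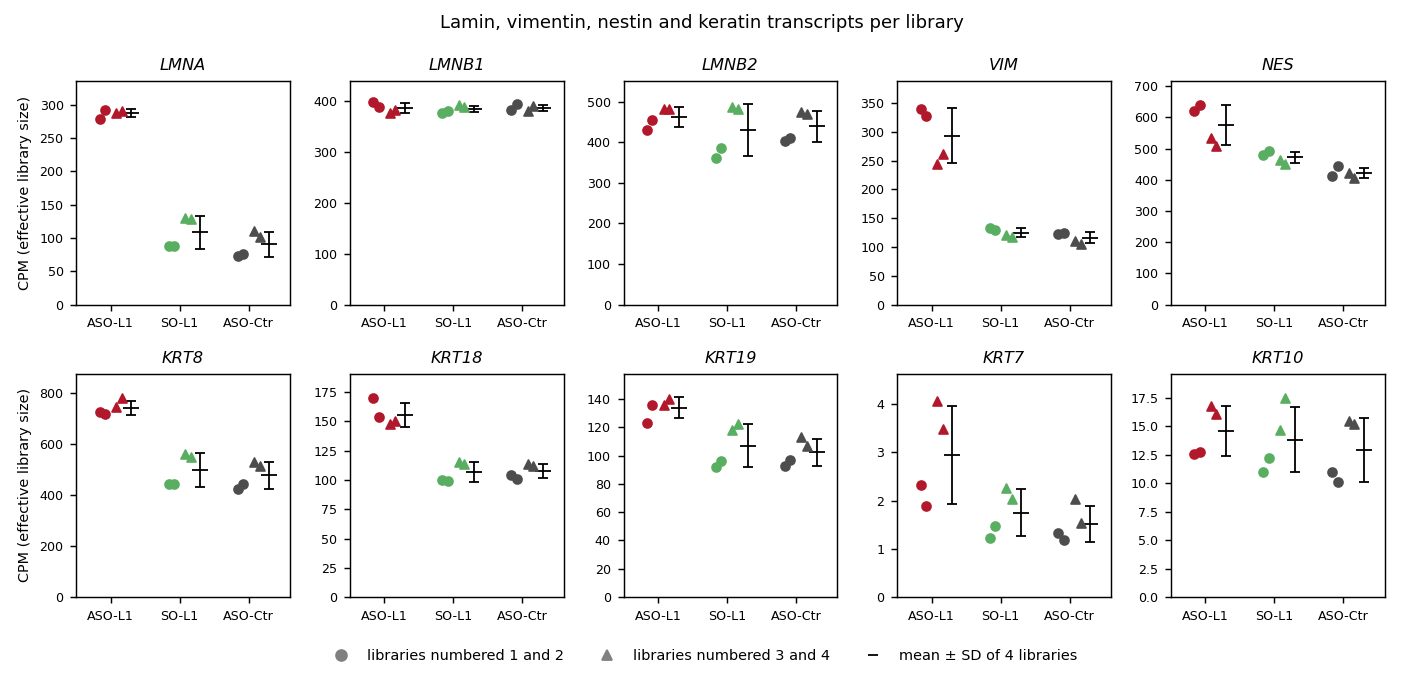
CPM of each gene (vertical axes, from 0) in every library of ASO-L1, SO-L1 and ASO-Ctr, with circles for libraries numbered 1 and 2, triangles for 3 and 4, and black bars for the mean ± SD of 4 libraries. All 4 ASO-L1 libraries lie above all others for LMNA, VIM, NES, KRT8, KRT18 and KRT19, while LMNB1 sits between 377 and 399 CPM in all 12.

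The lamins split by type. LMNA had 278, 292, 288 and 291 CPM in ASO-L1 libraries 1 to 4. It had 87.1, 87.1, 130 and 129 CPM in SO-L1 libraries 1 to 4, and 73.1, 75.6, 110 and 102 CPM in ASO-Ctr libraries 1 to 4. All ASO-L1 libraries were thus above all others, with means of 287 ± 6.60 CPM in ASO-L1, 108 ± 24.5 in SO-L1 and 90.3 ± 18.8 in ASO-Ctr (SD, n = 4 each). The log2 fold change was 1.67 ± 0.16 (SE; edgeR adjusted p = 1.45e-05) against ASO-Ctr and 1.41 ± 0.16 (edgeR adjusted p = 6.06e-05) against SO-L1, both higher in 4 of 4 same-numbered pairs. By its p-value LMNA stood at rank 162 of all genes in the comparison with ASO-Ctr.

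LMNB1 was level across the study. It averaged 387 ± 9.24 CPM in ASO-L1, 385 ± 6.56 in SO-L1 and 388 ± 5.78 in ASO-Ctr libraries, with overlapping ranges. The log2 difference was -0.01 against ASO-Ctr, with a 95% interval of -0.07 to 0.06, and 0.01 against SO-L1, with an interval of -0.06 to 0.07. The counts of LMNA per count of LMNB1 in the same library, which need no scaling between libraries, were 0.696 to 0.765 in ASO-L1, 0.228 to 0.333 in SO-L1 and 0.190 to 0.289 in ASO-Ctr libraries. This ratio of A-type to B-type lamin counts did not overlap between ASO-L1 and either other group.

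LMNB2 had 430, 456, 483 and 482 CPM in ASO-L1 libraries 1 to 4, against 362, 387, 488 and 482 in SO-L1 and 403, 411, 475 and 471 in ASO-Ctr libraries. Its values overlapped between all groups, and in each group numbers 3 and 4 were above 1 and 2. The log2 difference was 0.07 against ASO-Ctr (95% interval -0.13 to 0.28) and 0.11 against SO-L1 (-0.10 to 0.31). LMNB2 passed against SO-L1 in the fit with the replicate number as a block, at 0.12 and an edgeR adjusted p of 0.0157. LMNB2 lies on the same strand as TIMM13, and reads in the stretch they share cannot be assigned to 1 of the genes by strand.

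VIM had 340, 328, 244 and 262 CPM in ASO-L1 libraries 1 to 4. It had 133, 129, 121 and 117 CPM in SO-L1, and 123, 125, 111 and 106 CPM in ASO-Ctr libraries 1 to 4. Every ASO-L1 library was above all others, and within ASO-L1 the libraries numbered 1 and 2 were the higher ones. The means were 294 ± 47.4 CPM in ASO-L1, 125 ± 7.05 in SO-L1 and 116 ± 9.29 in ASO-Ctr (SD, n = 4 each). The log2 fold change was 1.34 ± 0.10 (SE; edgeR adjusted p = 2.11e-06) against ASO-Ctr, which put VIM at rank 62 of all genes by p-value, and 1.23 ± 0.10 (edgeR adjusted p = 4.92e-06) against SO-L1. The antisense gene VIM-AS1, which overlaps it, held 22 to 73 counts per library, beside 2498 to 10451 for VIM.

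NES rose less than VIM did. It had 620, 640, 533 and 508 CPM in ASO-L1 libraries 1 to 4, 481, 492, 464 and 450 in SO-L1, and 411, 443, 423 and 407 in ASO-Ctr libraries. The 3 groups did not overlap, in the order ASO-L1, SO-L1, ASO-Ctr. The log2 fold change was 0.45 ± 0.07 (SE; edgeR adjusted p = 0.000416) against ASO-Ctr and 0.29 ± 0.07 (edgeR adjusted p = 0.00939) against SO-L1.

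Promoter sequences show how these genes start, for members that moved and one that did not. The RefSeq promoter table of GRCh38.p14 gave 1 start for 5 of the 10 genes. The last 100 bases before the start are printed for the 3 of these that hold a GC box, the letters recognised by SP-family factors; capitals mark GGGCGG or, on the other strand, CCGCCC. VIM lies at chr10:17228141-17228240 on the plus strand, NES at chr1:156677408-156677507 and LMNB2 at chr19:2456960-2457059, both on the minus strand, and all are written 5′ to 3′ along the gene.
VIM: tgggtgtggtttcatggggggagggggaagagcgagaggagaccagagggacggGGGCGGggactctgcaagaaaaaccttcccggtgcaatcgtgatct
NES: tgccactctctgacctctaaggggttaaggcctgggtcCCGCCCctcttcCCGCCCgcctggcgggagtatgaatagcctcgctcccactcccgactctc
LMNB2: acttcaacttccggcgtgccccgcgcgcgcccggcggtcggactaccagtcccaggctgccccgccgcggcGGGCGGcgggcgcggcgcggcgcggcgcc
In the 250 bases before the start, VIM held 1 GC box, NES 2 and LMNB2 1, and KRT8 and KRT10 held 0; the box is in 42.6% of 35116 promoters. The AP-1 letters TGANTCA were in 0 of the 5 windows and in 6.57% of all promoters. VIM and NES rose and LMNB2 did not pass the test, so the box was found on both sides of the call. A match is a description of these letters and not a bound site.

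The simple epithelial pair rose together. KRT8 had 724, 715, 746 and 778 CPM in ASO-L1 libraries 1 to 4, against 442, 441, 562 and 549 in SO-L1 and 424, 441, 530 and 515 in ASO-Ctr libraries. The log2 fold change of KRT8 was 0.63 ± 0.09 (SE; edgeR adjusted p = 0.000328) against ASO-Ctr and 0.57 ± 0.09 (edgeR adjusted p = 0.000849) against SO-L1. Its ASO-L1 libraries were above all libraries of the other groups.

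KRT18, the type I partner of KRT8, had 170, 154, 148 and 150 CPM in ASO-L1 libraries 1 to 4, against 100, 98.8, 115 and 114 in SO-L1 and 104, 101, 114 and 112 in ASO-Ctr libraries. Again no ASO-L1 library overlapped the others. The log2 fold change of KRT18 was 0.53 ± 0.07 (SE; edgeR adjusted p = 9.64e-05) against ASO-Ctr and 0.54 ± 0.07 (edgeR adjusted p = 0.000107) against SO-L1. The count ratio of KRT8 to KRT18 within a library averaged 4.77 ± 0.418 in ASO-L1, 4.64 ± 0.235 in SO-L1 and 4.42 ± 0.257 in ASO-Ctr libraries (SD, n = 4 each). Its ranges overlapped, and it was higher in ASO-L1 than in ASO-Ctr in 4 of 4 same-numbered pairs and higher than in SO-L1 in 3 of 4. The count ratio of VIM to KRT18 was 1.65 to 2.13 in ASO-L1, 1.03 to 1.32 in SO-L1 and 0.944 to 1.24 in ASO-Ctr libraries, so VIM was higher relative to KRT18 in ASO-L1 libraries without overlap. The genes KRT8 and KRT18 are annotated with an overlap on opposite strands, and both have many processed copies in the genome: 44 copy rows held 2.17% as many counts as KRT8 and 39 held 0.944% as many as KRT18. Adding the copies to their gene left the calls of both as they were.

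KRT19, a small type I keratin without a tail domain, had 123, 136, 136 and 140 CPM in ASO-L1 libraries 1 to 4, against 92.0, 96.0, 118 and 122 in SO-L1 and 92.4, 96.9, 113 and 107 in ASO-Ctr libraries. The lowest ASO-L1 library lay just above the highest SO-L1 library. The log2 fold change of KRT19 was 0.38 ± 0.09 (SE; edgeR adjusted p = 0.00994) against ASO-Ctr and 0.32 ± 0.09 (edgeR adjusted p = 0.0272) against SO-L1. The second call did not hold without SO-L1 1 or 2 or ASO-L1 2, 3 or 4, where the edgeR adjusted p ran between 0.0571 and 0.0824.

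KRT7, a type II keratin of glands and ducts, was low throughout. It had 2.32, 1.88, 4.07 and 3.49 CPM in ASO-L1 libraries 1 to 4, against 1.23, 1.48, 2.27 and 2.03 in SO-L1 and 1.33, 1.19, 2.03 and 1.53 in ASO-Ctr libraries, from 25 to 117 counts per library. The groups overlapped, and in each group numbers 3 and 4 were above 1 and 2. KRT7 was 0.95 ± 0.27 higher on the log2 scale against ASO-Ctr (SE; edgeR adjusted p = 0.0242), and 0.72 ± 0.27 against SO-L1 (edgeR adjusted p = 0.0772), which did not pass. The first call did not hold without ASO-Ctr 1, 2 or 4 or ASO-L1 3 or 4 (edgeR adjusted p between 0.0523 and 0.0807). With the replicate number as a block KRT7 also passed against SO-L1, at 0.73 and an edgeR adjusted p of 8.86e-05, and without ASO-L1 2 it passed at 0.0304.

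KRT10, the type I keratin of differentiating epidermis, had 12.6, 12.8, 16.8 and 16.1 CPM in ASO-L1 libraries 1 to 4, against 11, 12.2, 14.7 and 17.5 in SO-L1 and 11, 10.1, 15.5 and 15.2 in ASO-Ctr libraries. The groups overlapped, and numbers 3 and 4 were above 1 and 2 in each. The log2 difference of KRT10 was 0.17 against ASO-Ctr (95% interval -0.21 to 0.54) and 0.07 against SO-L1 (-0.30 to 0.44). With the replicate number as a block it passed against ASO-Ctr, at 0.18 and an edgeR adjusted p of 0.0287. TMEM99, which overlaps KRT10 on the opposite strand, held 100 to 240 counts per library.

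**Figure D2:**
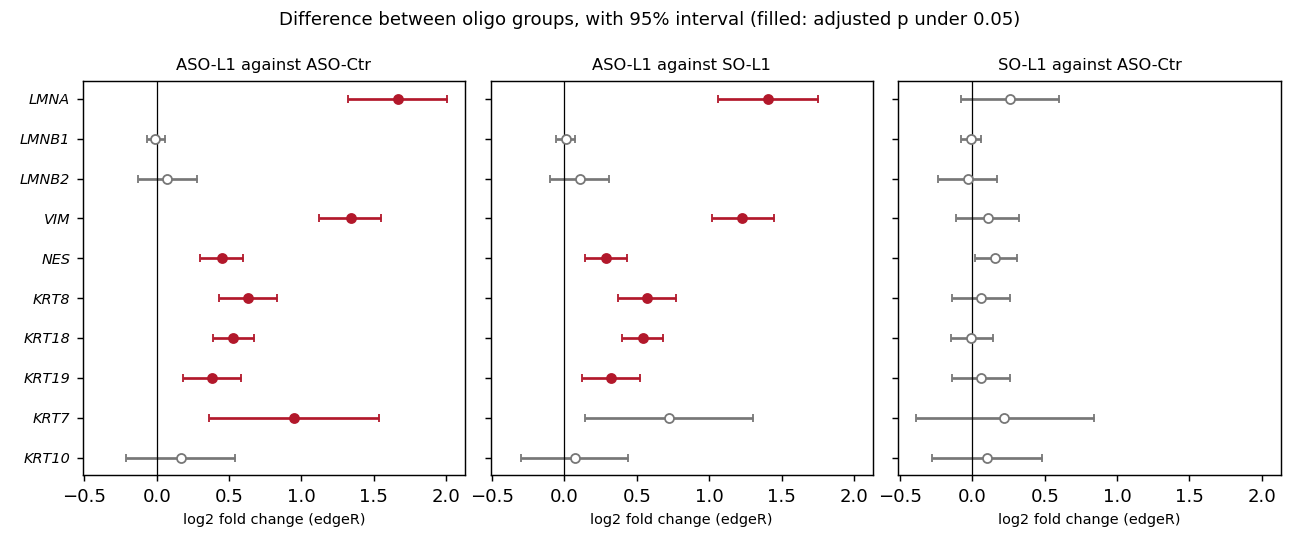
Log2 fold change of each gene (horizontal axes) with its 95% interval in ASO-L1 against ASO-Ctr, ASO-L1 against SO-L1 and SO-L1 against ASO-Ctr; filled points have an adjusted p under 0.05. LMNA and VIM are farthest to the right in the first 2 panels, LMNB1 lies at 0 with the narrowest interval, and no point is filled in the third.

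In the authors' deposited table, which compares ASO-L1 with SO-L1 over 21414 genes, LMNA had a log2 fold change of 1.42 (adjusted p = 1.87e-08 in that table) and VIM one of 1.22 (3.11e-10 in that table). KRT7 passed in the authors' deposited table at 0.69 and an adjusted p of 0.0290, where it did not pass here. LMNB1 stood at 0.00 and LMNB2 at 0.11 with an adjusted p of 0.127 in the authors' deposited table.

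In SO-L1 against ASO-Ctr, 0 of the 10 genes passed edgeR's test, and 0 passed with DESeq2 or limma-voom; 0.029% of all genes passed. At an unadjusted p under 0.05 there was 1 gene of the 10, NES, among 527 genes in all. NES averaged 472 ± 18.7 CPM in SO-L1 and 421 ± 16.5 in ASO-Ctr libraries (SD, n = 4 each), all 4 SO-L1 libraries above all 4 ASO-Ctr ones; of all genes 2.3% did not overlap, 1.04% being higher. The log2 difference of NES was 0.16 with a 95% interval of 0.02 to 0.31 (edgeR adjusted p = 1), and with the replicate number as a block it passed, at an edgeR adjusted p of 0.0232. LMNA differed by 0.26 (interval -0.08 to 0.60) and did not pass with the replicate number as a block (edgeR adjusted p = 0.625). In a fit of numbers 1 and 2 alone LMNA passed, at 0.23 (edgeR adjusted p = 0.0107). In a fit of numbers 3 and 4 alone it passed at 0.28 (edgeR adjusted p = 4.56e-06). These sets were formed from these data, and the 2 fits called 124 and 201 genes in all. VIM differed by 0.11 (-0.11 to 0.32), KRT8 by 0.06 (-0.14 to 0.26) and LMNB1 by -0.01 (-0.08 to 0.06).

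The size of the oligo difference varied between the library numbers. LMNA in numbers 3 and 4 was 1.02 times its level in numbers 1 and 2 in ASO-L1, but 1.49 times in SO-L1 and 1.43 times in ASO-Ctr libraries. VIM ran the other way, at 0.759 times in ASO-L1, 0.911 times in SO-L1 and 0.874 times in ASO-Ctr libraries. KRT8 in numbers 3 and 4 was 1.06 times its level in numbers 1 and 2 in ASO-L1, 1.26 times in SO-L1 and 1.21 times in ASO-Ctr.

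Within numbers 1 and 2 the log2 fold change of LMNA against ASO-Ctr was 1.94, and within numbers 3 and 4 it was 1.45. Against SO-L1 the LMNA values were 1.71 within numbers 1 and 2 and 1.16 within numbers 3 and 4. VIM against ASO-Ctr came to 1.43 within numbers 1 and 2 and 1.22 within 3 and 4, and KRT8 to 0.73 and 0.54. In a test of the interaction of oligo and number set, 3 of the 10 genes passed against ASO-Ctr (LMNA, NES and KRT18), where 0.778% of all genes did, and 6 passed against SO-L1 (LMNA, VIM, LMNB2, KRT8, KRT18 and KRT19), where 1.76% did. All 9 differences were smaller in numbers 3 and 4. The sets were formed after the libraries were seen to fall apart this way, so these p-values may be too small.

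**Figure D3:**
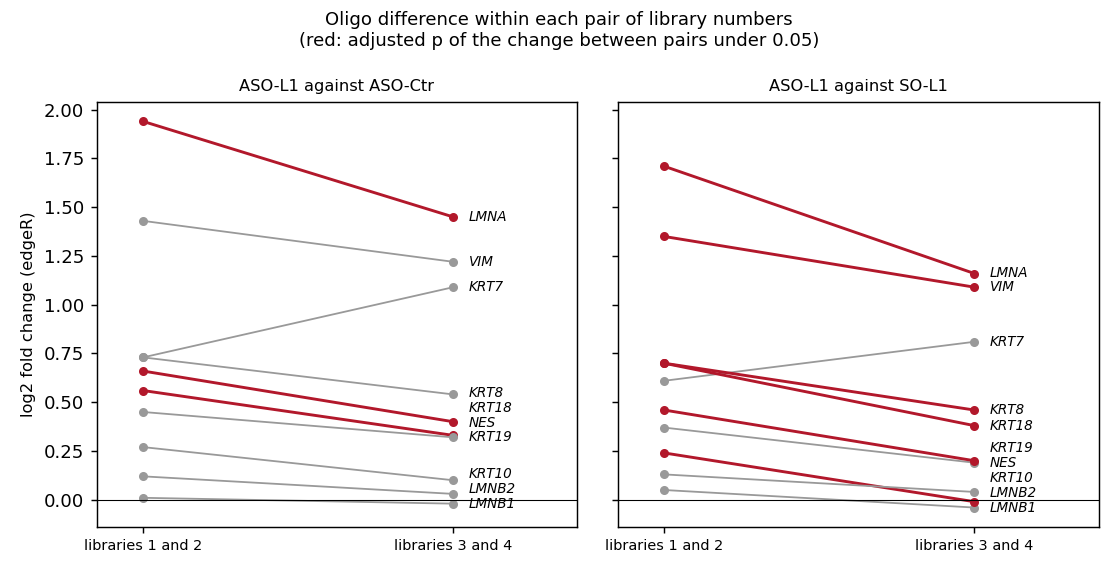
Log2 fold change (vertical axis) of each gene in libraries numbered 1 and 2 and in libraries numbered 3 and 4, for ASO-L1 against ASO-Ctr (left) and ASO-L1 against SO-L1 (right). Red lines, with an adjusted p of the change under 0.05, all slope down, the steepest being LMNA, while KRT7 in grey runs up.

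The other keratin genes were low or at 0 in SO-L1 and ASO-Ctr libraries. Of 50 further keratin genes, 8 passed the filter, 17 had no count in any library, and the 42 that did not pass the filter held 142 counts in all in ASO-L1, 44 in SO-L1 and 27 in ASO-Ctr libraries. Of the 8, 5 rose and 0 fell against ASO-Ctr, 6 rose and 0 fell against SO-L1, by edgeR's test, while in SO-L1 against ASO-Ctr 0 passed with edgeR, at an unadjusted p under 0.05, with DESeq2 or with limma-voom. Most of these genes passed the filter through the ASO-L1 libraries, so the count that rose lends no support. KRT222, picked out by its level, was the highest of the 50 in ASO-Ctr libraries, with 1.43 ± 0.410 CPM in ASO-L1, 1.35 ± 0.40 in SO-L1 and 1.52 ± 0.245 in ASO-Ctr libraries (SD, n = 4 each), and did not pass (edgeR adjusted p = 0.847 against ASO-Ctr). Summed over all 50 genes, the level was 16.0 to 27.5 CPM in ASO-L1, 1.73 to 4.95 in SO-L1 and 2.36 to 4.21 in ASO-Ctr libraries, and the ASO-L1 libraries did not overlap the others.

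KRT16, a keratin of hair follicle, nail and stressed epidermis, had 188, 231, 223 and 213 counts in ASO-L1 libraries 1 to 4, against 5, 5, 22 and 19 in SO-L1 and 4, 6, 8 and 10 in ASO-Ctr libraries. It averaged 7.78 ± 0.675 CPM in ASO-L1 and 0.283 ± 0.103 CPM in ASO-Ctr libraries (SD, n = 4 each). The scaled ratio of its group counts, 855 in ASO-L1 and 28 in ASO-Ctr, was 27.4 with a 95% counting interval of 18.8 to 41.5. Its copies KRT16P2 and KRT16P3 averaged 1.67 and 1.26 CPM in ASO-L1 and 0.125 and 0.291 CPM in ASO-Ctr libraries, and reads cannot be split safely between near-identical copies. KRT6A, the usual type II partner of KRT16, had 20, 35, 55 and 56 counts in ASO-L1 libraries, against 1, 0, 1 and 1 in SO-L1 and 0, 0, 0 and 2 in ASO-Ctr libraries. The scaled ratio of KRT6A counts over the group sums, 166 in ASO-L1 and 2 in ASO-Ctr, was 74.4 with a 95% counting interval of 20.3 to 620.

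KRT75, a hair follicle keratin, had 54, 91, 237 and 185 counts in ASO-L1 libraries 1 to 4, against 1, 1, 7 and 3 in SO-L1 and 3, 0, 2 and 3 in ASO-Ctr libraries, a ratio to ASO-Ctr of 63.6 with a counting interval of 32.0 to 148. KRT80 had 44, 48, 52 and 36 counts in ASO-L1, against 4, 6, 9 and 2 in SO-L1 and 1, 3, 6 and 9 in ASO-Ctr libraries, a ratio to ASO-Ctr of 8.49 with a counting interval of 5.28 to 14.4. No p is given for these keratins, which passed the filter through the ASO-L1 libraries. For all 4 of these keratins the ASO-L1 libraries were above all others, which for the same reason lends no support. Of all genes, 13.3% were higher without overlap against ASO-Ctr and 12.7% against SO-L1. KRT17, the fifth of the 5 that rose and named after its values were seen, had 36 to 49 counts in ASO-L1, 2 to 12 in SO-L1 and 3 to 10 in ASO-Ctr libraries. Against ASO-Ctr, 7 of the 8 rose in the fit with the replicate number as a block, where 3869 of 17228 genes were higher. Most of the 8 passed the filter through the ASO-L1 libraries, so this count lends no support either.

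**Figure D4:**
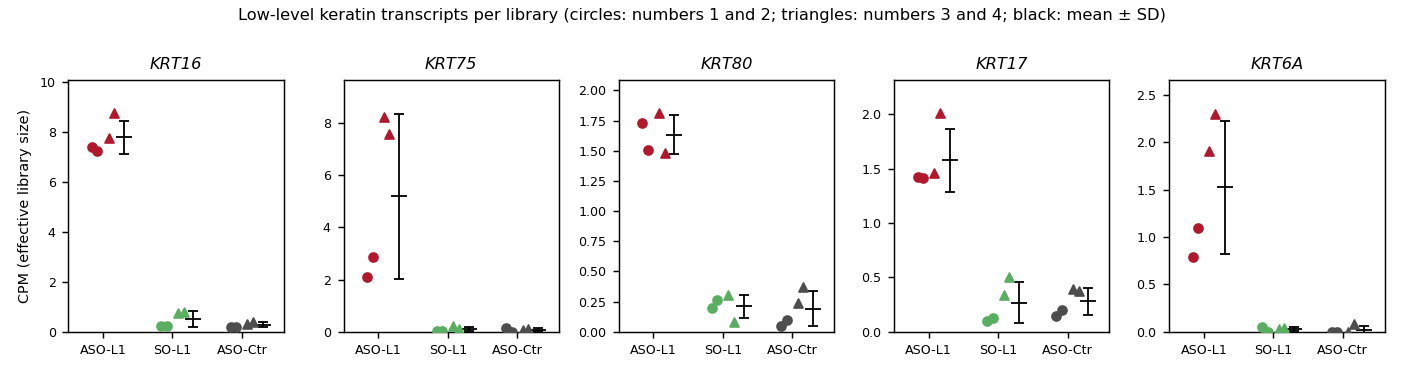
CPM (vertical axes, from 0) of KRT16, KRT75, KRT80, KRT17 and KRT6A in each library of ASO-L1, SO-L1 and ASO-Ctr, with circles for numbers 1 and 2, triangles for numbers 3 and 4 and black bars for mean ± SD. All 4 ASO-L1 libraries are above every other library in each panel, and for KRT75 and KRT6A their triangles are above their circles. These keratins passed the filter through the ASO-L1 libraries, so the separation lends no support.

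Among 10 other cytoplasmic filament genes, 9 were tested, 3 rose and 1 fell against ASO-Ctr. Of all genes tested, 11.6% were higher and 10.7% lower. Peripherin (PRPH), a filament of peripheral neurons, averaged 5.51 ± 2.21 CPM in ASO-L1 and 1.71 ± 0.566 CPM in ASO-Ctr libraries (log2 fold change 1.70 ± 0.31, edgeR adjusted p = 0.00175). Internexin (INA), a neuronal filament, averaged 85.2 ± 9.95 CPM in ASO-L1 and 59.5 ± 4.58 CPM in ASO-Ctr libraries (0.52 ± 0.08, edgeR adjusted p = 0.000641). Synemin (SYNM), which copolymerises with vimentin, rose by 0.75 ± 0.20 (edgeR adjusted p = 0.0181), and the lens filament gene BFSP1 fell by 0.27 (edgeR adjusted p = 0.0452). The neurofilament genes did not pass the test: NEFL averaged 136 ± 15.7 CPM in ASO-L1 and 118 ± 5.70 CPM in ASO-Ctr libraries (edgeR adjusted p = 0.0544), NEFM 41.5 ± 7.51 in ASO-L1 and 49.6 ± 5.31 in ASO-Ctr (edgeR adjusted p = 0.132), and NEFH 93.0 ± 20.6 in ASO-L1 and 95.4 ± 21.0 in ASO-Ctr (edgeR adjusted p = 0.928), all named after their values were seen. The neural progenitor list had 0 of 7 tested genes higher (1 at an unadjusted p under 0.05, 0 with DESeq2) and 1 lower. That list summed over 10 genes came to 20.7 to 30.9 CPM in ASO-L1 and 22.8 to 31.8 CPM in ASO-Ctr libraries, and SOX1 had 5 counts in all in each of these groups. PAX6, another marker of that list, averaged 3.89 CPM in ASO-L1 and 3.12 CPM in ASO-Ctr libraries, did not pass (edgeR adjusted p = 0.565), and passed with the replicate number as a block, at 0.30 (edgeR adjusted p = 0.0443).

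Genes that anchor the filaments moved in both directions. Of 14 linker and desmosome genes, all tested, 6 rose and 5 fell against ASO-Ctr, with a median log2 fold change of -0.05. Of all genes tested, 11.6% were higher and 10.7% lower. Desmoplakin (DSP), which ties keratin filaments to desmosomes, averaged 195 ± 26.1 CPM in ASO-L1 and 113 ± 5.67 CPM in ASO-Ctr libraries (SD, n = 4 each), a log2 fold change of 0.78 ± 0.09 (edgeR adjusted p = 3.99e-05). Plakophilin 3 (PKP3), a desmosomal plaque protein, averaged 40.1 ± 5.21 CPM in ASO-L1 and 25.9 ± 1.06 CPM in ASO-Ctr libraries (0.63 ± 0.08, edgeR adjusted p = 0.000155). PKP4, a relative found at cell junctions, fell to 63.1 ± 1.01 CPM in ASO-L1, against 81.9 ± 3.15 CPM in ASO-Ctr libraries (edgeR adjusted p = 3.36e-05). The desmosomal cadherin DSG2 fell to 247 ± 7.16 CPM in ASO-L1, against 283 ± 7.42 CPM in ASO-Ctr libraries (edgeR adjusted p = 0.00148). Against SO-L1, 6 of the 14 rose and 2 fell, where 10.7% of all genes were higher and 9.64% lower. With the replicate number as a block 6 rose and 4 fell against SO-L1, where 3727 of 17228 genes were higher and 3742 lower.

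Partners of the lamins at the nuclear envelope did not follow LMNA as a group. Of 13 tested, 2 rose and 3 fell against ASO-Ctr, with a median log2 fold change of -0.04. Of all genes tested, 11.6% were higher and 10.7% lower. With the replicate number as a block 3 of the 13 rose and 5 fell, where 3869 of 17228 genes were higher and 3878 lower. LEMD3, an inner nuclear membrane protein that binds A-type lamins, averaged 57.3 ± 1.82 CPM in ASO-L1 and 70.8 ± 2.24 CPM in ASO-Ctr libraries (log2 fold change -0.31 ± 0.04, edgeR adjusted p = 0.000204). SYNE2, a nesprin that links the envelope to the cytoskeleton, averaged 82.1 ± 9.96 CPM in ASO-L1 and 106 ± 6.36 CPM in ASO-Ctr libraries (-0.37 ± 0.10, edgeR adjusted p = 0.0159). TOR1AIP1, a lamin-binding membrane protein, rose by 0.23 ± 0.04 (edgeR adjusted p = 0.00242), and the B-type lamin receptor LBR rose by 0.16 ± 0.04 (edgeR adjusted p = 0.0229). Of 5 genes of lamin maturation, 0 passed edgeR's test in any comparison, 0 passed with DESeq2 or limma-voom, and 1 had an unadjusted p under 0.05 in each ASO-L1 comparison. With the replicate number as a block 2 of the 5 rose against ASO-Ctr and 3 against SO-L1. In those fits 3869 and 3727 of 17228 genes were higher. Of the 5 genes, ZMPSTE24, the protease that trims prelamin A, averaged 112 ± 12.7 CPM in ASO-L1 and 107 ± 11.3 CPM in ASO-Ctr libraries. With the block it did not pass against ASO-Ctr (edgeR adjusted p = 0.138) and passed against SO-L1, at 0.12 (edgeR adjusted p = 0.00645).

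**Figure D5:**
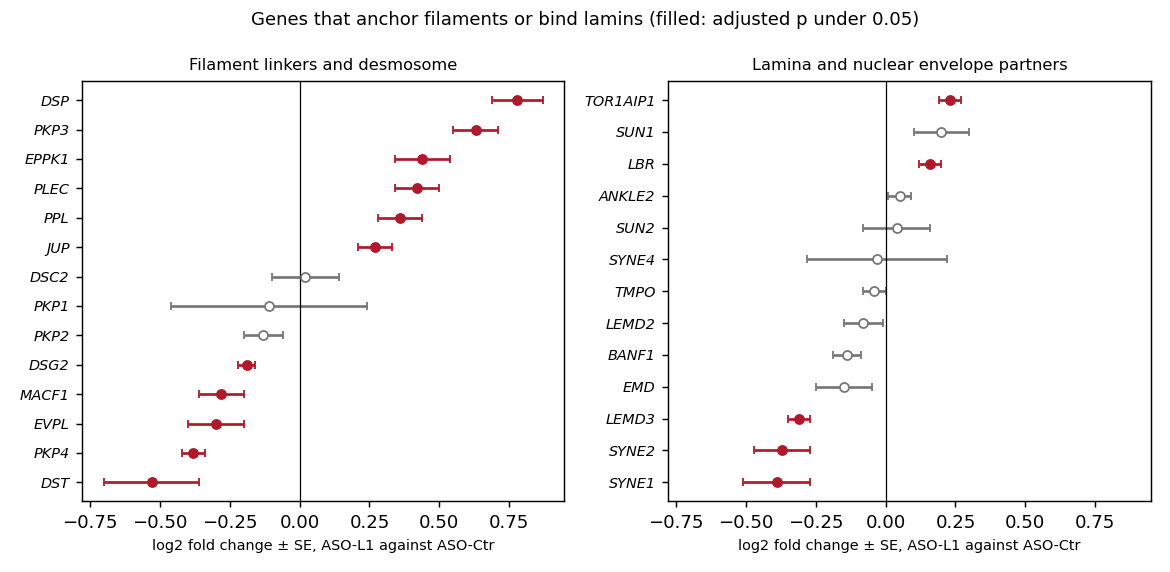
Log2 fold change ± SE (horizontal axes) in ASO-L1 against ASO-Ctr for 14 linker and desmosome genes (left) and 13 partners of the lamina (right), with filled points for an adjusted p under 0.05. DSP at 0.78 and PKP3 at 0.63 are the highest on the left, and LEMD3, SYNE2 and SYNE1 are the lowest on the right, all under 0.

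Markers of other cell types moved as follows beside the filament genes. The fibroblast list, set beside VIM, had 4 of 10 tested genes higher and 0 lower against ASO-Ctr. Of all genes tested, 11.6% were higher and 10.7% lower. The sum of this list over 16 genes was 873 to 893 CPM in ASO-L1, 648 to 773 in SO-L1 and 659 to 761 in ASO-Ctr libraries. Without SPARC the sums were 479 to 558 CPM in ASO-L1, 400 to 521 in SO-L1 and 427 to 540 in ASO-Ctr libraries and overlapped. The 4 that rose were SPARC, COL1A1, at 115 ± 22.6 CPM in ASO-L1 and 66.3 ± 20.1 CPM in ASO-Ctr libraries (edgeR adjusted p = 0.0425), S100A4, by 2.74-fold, and TWIST2, by 1.76-fold. COL1A2 averaged 149 CPM in ASO-L1 and 168 CPM in ASO-Ctr libraries, and THY1 averaged 83.3 CPM in ASO-L1 and 76.6 CPM in ASO-Ctr libraries. With the replicate number as a block COL1A2 fell by 0.17 on the log2 scale (edgeR adjusted p = 5.64e-05). In that fit POSTN fell by 0.39 (edgeR adjusted p = 0.032) and THY1 rose by 0.13 (edgeR adjusted p = 0.01). It had 3869 of 17228 genes higher and 3878 lower. The fibroblast gene FAP had no count in any library, which allows up to 3 counts, DCN had 1 count in all and LUM 5. For SPARC the means were 364 ± 43.4 CPM in ASO-L1 and 235 ± 11.8 CPM in ASO-Ctr libraries (edgeR adjusted p = 4.88e-05). The part of these markers in the rise of VIM was not tested.

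The trophectoderm and amnion list, set beside the simple keratins, had 2 of 7 tested genes higher (DLX3 and GATA2) against ASO-Ctr. Of all genes tested, 11.6% were higher and 10.7% lower in that comparison. DLX3 was at 0.690 to 1.31 CPM in ASO-L1 and at most 0.199 in ASO-Ctr and 0.338 in SO-L1 libraries. DLX3 passed the filter through the ASO-L1 libraries, so its call lends no support. The sum of this list over 17 genes overlapped, at 69.2 to 73.7 CPM in ASO-L1, 65.4 to 82.0 in SO-L1 and 66.9 to 84.0 in ASO-Ctr libraries. Its genes stood at different levels: TFAP2C was at 50.7 to 58.5 CPM in ASO-L1, 50.5 to 68.2 in SO-L1 and 52.6 to 70.7 in ASO-Ctr libraries, and GABRP at 1.65 to 2.79 CPM in ASO-L1, 1.29 to 1.91 in SO-L1 and 1.73 to 2.07 in ASO-Ctr libraries. CDX2 had 9 counts in all in ASO-L1, 3 in SO-L1 and 0 in ASO-Ctr libraries, and ELF5 had 2 in ASO-L1 and 0 in both SO-L1 and ASO-Ctr libraries. The mesendoderm list had 3 of 4 tested genes higher (CER1, MIXL1 and GATA6) against ASO-Ctr. Its sum over 9 genes was 79.1 to 132 CPM in ASO-L1, 20.3 to 32.0 in SO-L1 and 19.6 to 29.6 in ASO-Ctr libraries. CER1 made up most of this sum, at 86.9 ± 26.3 CPM in ASO-L1 and 13.8 ± 4.64 CPM in ASO-Ctr libraries (edgeR adjusted p = 6.75e-05). GATA6 was at 0.708 to 1.49 CPM in ASO-L1 and at most 0.278 in ASO-Ctr and 0.169 in SO-L1 libraries. GATA6 passed the filter through the ASO-L1 libraries, so its call lends no support. The part of the mesendoderm markers in the rise of the filament genes was not tested. Of 8 core pluripotency genes 0 rose and 4 fell (SOX2, POU5F1, LIN28A and SALL4) against ASO-Ctr. With the replicate number as a block TDGF1, DPPA4 and NANOG also fell, and ZFP42 did not pass. Of 8 naive genes tested 4 rose (TFCP2L1, KLF4, KLF5 and DNMT3L) and 0 fell. With the replicate number as a block KLF17 and SUSD2 also rose, and DPPA3 did not pass. DPPA5 fell in that fit, by 0.53 on the log2 scale (edgeR adjusted p = 0.000549). The blocked fit had 3869 of 17228 genes higher and 3878 lower.

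The genes whose log2 CPM ran most like that of a filament gene are given as a description over 12 libraries, which share their group and number set, among 13246 genes with a mean log2 CPM above 1. For LMNA they were SFN (Pearson r = 0.998), LAMB3 (0.997) and MMP9 (0.996). For VIM they were KLF6 (0.996), LCP1 (0.994) and CLIC1 (0.992). For KRT8 they were CCR7 (0.997), MRGPRF (0.993) and TAGLN2 (0.992), and for KRT18 TAGLN (0.990), DNAJA3 (0.985) and IGFBP6 (0.983). Among the 10 genes themselves LMNA ran closest with KRT8, at 0.988, and VIM closest with NES, at 0.920.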

How the data were processed

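Poly(A) RNA of 12 libraries of H9 cells was sequenced with a directional kit, per the labels' protocols. The submitters' processing notes name Trim Galore 0.4.0, TopHat2 2.0.13, featureCounts of Subread 1.5.0 and build hg19; the strand setting of counting is not given in the sources used here. The deposited table holds raw counts per gene symbol, with a name tagged rmDup whose meaning is not stated. A second deposited table holds log2 values that the authors call batch corrected, by a method not given in the sources used here, and was used only as an alternative. The authors' deposited comparison of ASO-L1 with SO-L1 gives log2 fold changes, p-values and adjusted p-values. A row without a name, at most 1.3e-05 percent of a library, was left out.

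Counts were fitted in R 4.3.3 with edgeR 4.0.16 (filterByExpr by group, least count 10 and least total 15; TMM; robust quasi-likelihood F test, two-sided; a mean per group over all 12 libraries), with adjusted p over all 17228 genes and a threshold of 0.05. CPM uses effective library sizes. Intervals of folds are 95% intervals of the fit, and intervals of count ratios and the floor of 3 counts cover counting error only. The analysis was checked on simulated data. Alternatives were RLE scaling, no filter, DESeq2 1.42.0, limma 3.58.1 (voom), the 2 compared groups alone, each number set alone, each library left out and, added after seeing the data, copies added to their gene.

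Same-numbered libraries of different groups deviated together (r 0.45 to 0.561 in 12 pairs), which meets the rule for pairing, every pair above 0.1. This comes from the data, since the labels state no shared day or batch. Different numbers of the same set correlated at 0.455 to 0.543, so the rule cannot tell pairing by number from the split into sets. Of the 12 libraries, 8 correlated best with their own number. Because the rule was met, the replicate number was also fitted as a block. The 10 genes and the other lists were chosen with earlier results of these data known. Named beside the 10 genes are up to 4 genes of each other list by smallest p among those past the threshold against ASO-Ctr, and the 3 genes most correlated with a gene, for 4 of the genes. Gene overlaps come from GENCODE names on GRCh38 and promoters from RefSeq GRCh38.p14, by symbol; no coordinates were moved between builds.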

Additional observations from a re-analysis of the deposited data

Results flagged for a closer look

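For 9 results the oligo difference itself differed between libraries numbered 1 and 2 and libraries numbered 3 and 4, by edgeR's interaction test. Against ASO-Ctr the log2 fold change in numbers 3 and 4 minus that in numbers 1 and 2 was -0.49 for LMNA (adjusted p = 2.84e-07), -0.26 for KRT18 (adjusted p = 0.0205) and -0.23 for NES (adjusted p = 0.0394). Against SO-L1 it was -0.55 for LMNA (adjusted p = 1.58e-08), -0.33 for KRT18 (adjusted p = 0.00106), -0.27 for VIM (adjusted p = 0.00879), -0.26 for KRT19 (adjusted p = 0.0189), and -0.25 both for KRT8 (adjusted p = 0.00888) and for LMNB2 (adjusted p = 0.0103). In SO-L1 against ASO-Ctr 0 of the 10 genes differed between the sets by edgeR's test, and LMNB2 alone had an unadjusted p under 0.05, at 0.00929. The sets were formed from these data, and the labels do not name a batch. No library stood apart from the other 3 of its group in any of the 10 genes by Dixon's test. Where the values of a group split by number set, that test can hardly single out 1 library.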

How the results depend on the processing

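With the replicate number as a block, 7747 genes passed against ASO-Ctr (3869 higher, 3878 lower), 7469 against SO-L1 (3727 and 3742) and 243 in SO-L1 against ASO-Ctr (73 and 170). Of the genes called without the block, 3845 of 3847, 3496 of 3497 and 5 of 5 were called with it, and of the 10 genes' calls the block changed none but the 4 given above (KRT10, LMNB2, KRT7 and NES). Numbers 1 and 2 alone gave 6045 genes against ASO-Ctr (3024, 3021), 5863 against SO-L1 (2963, 2900) and 124 in SO-L1 against ASO-Ctr (43, 81). Numbers 3 and 4 alone gave 6103 (3131, 2972), 5861 (3070, 2791) and 201 (64, 137). In SO-L1 against ASO-Ctr, DESeq2 called 48 genes (6, 42) and the table without a filter 8 (1 higher). Of the 10 genes, the block called 1 there (NES), and each number set alone called 2 (NES and LMNA, higher). LMNA was then 0.23 and 0.28 higher, with adjusted p of 0.0107 and 4.56e-06. The cause was not tested. Numbers 1 and 2 alone also called LMNB2 (0.12) and KRT10 (0.27) against ASO-Ctr and LMNB2 (0.24) against SO-L1, and numbers 3 and 4 alone called KRT7 (0.82) against SO-L1. Leaving out 1 library in turn called 6 or 7 of the 10 genes against ASO-Ctr and 5 or 6 against SO-L1. No direction of a called gene was reversed in any alternative run, and scaling moved the median over all genes by at most 0.01. KRT7, with 25 to 117 counts per library, is the least precisely measured of the 10.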
